A study of Mus musculus with 4 samples.

Results

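The Notch ligands, receptors and Hes effectors were followed through mouse gastrulation in droplet single-cell RNA sequencing. The set held 10 genes taken by symbol, without use of their values: the ligands Dll1, Dll3 and Jag1, the receptors Notch1, Notch2 and Notch3, the sugar transferase Lfng, and the repressors Hes1, Hes3 and Hes7. They were 10 of the 19616 genes listed over 3 stage libraries. At the first 2 stages 9 of the 10 were listed, of 16639 and 16341 genes, because Hes3 had no entry there, and at the last stage all 10 were listed, of 18640. The study traced where the heart fields arise in the primitive streak.

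All embryos had the genotype TnEGP-CreERT2/+; R26Rtdtomato/R26Rtdtomato. In this line CreERT2 and a nuclear GFP are expressed downstream of the endogenous T gene, the other T allele is unmodified, and tamoxifen lets tdTomato be switched on in cells that express T. Tamoxifen was given to every litter by gavage at 0.08 mg per body weight. The mid to late streak library (MS-LS) was dissected at E6+21h after tamoxifen at E6+5h. The no bud to early bud library (OB-EB) was dissected at E7+3h after tamoxifen at E6+21h. The early headfold library (EHF) was dissected at E7+14h after tamoxifen at E7+7h. No untreated or wild-type library was analysed here.

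The MS-LS library held 3635 cells with a median of 4251 UMIs, the OB-EB library 3994 cells with a median of 2620.5, and the EHF library 3494 cells with a median of 5584. A UMI is a tag that marks 1 captured transcript molecule. The EHF library came as 2 tables with 0 differing counts, so they were counted as 1 sample. Each stage was 1 library of pooled embryos, so no difference has a replicate check, no p-value was computed, and every interval below is a 95% interval that covers counting error only. The libraries shared 12 to 18 cell barcodes by pair. Of the cells that could be called female or male, 51.7% were female at MS-LS, 63.2% at OB-EB and 85.7% at EHF.

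In Notch signalling a ligand of the Delta or Jagged family on 1 cell binds a Notch receptor on its neighbour. The receptor is then cleaved, and its intracellular part enters the nucleus, joins the DNA-binding protein RBPJ and switches on targets, of which the Hes genes are the best known. Hes proteins are repressors. In the presomitic mesoderm, the tissue that buds off the somites, Dll1, Dll3, Lfng and Hes7 belong to the segmentation clock, in which Hes7 represses its own transcription and that of Lfng. Jag1 and Notch1 are also needed in the heart and the blood vessels.

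On GRCm38 the ligand genes lie at chr17:15367354-15376872 (Dll1), chr7:28293553-28302238 (Dll3) and chr2:137081456-137116644 (Jag1), all on the minus strand. The receptor genes lie at chr2:26457903-26516663 (Notch1, minus strand), chr3:98013527-98150361 (Notch2, plus strand) and chr17:32120820-32166852 (Notch3, minus strand), and Lfng at chr5:140607320-140615545 on the plus strand. The repressor genes lie at chr16:30064384-30067796 (Hes1, plus strand), chr4:152285972-152291662 (Hes3, minus strand) and chr11:69120404-69124055 (Hes7, plus strand). Counts are per gene and do not tell exons or transcripts apart. The promoters of Hes7, Lfng and Dll1 are shown because these clock genes are the ones whose levels are set against each other in the caudal and presomitic groups below. The sequences are from RefSeq on GRCm38.p6, read 5′ to 3′ on the strand of the gene, and each is the stretch of the 250 bases before the transcript start that lies ahead of the first annotated exon. Capitals mark matches on either strand to the RBPJ core TGGGAA, to the Hes N-box CACNAG, in which N is any base, or to the Hes class C site CACGCG. No capital marks the T-box half-site TCACACC, which was searched too and had 0 matches in these windows.
Hes7, chr11:69120203-69120403, plus strand: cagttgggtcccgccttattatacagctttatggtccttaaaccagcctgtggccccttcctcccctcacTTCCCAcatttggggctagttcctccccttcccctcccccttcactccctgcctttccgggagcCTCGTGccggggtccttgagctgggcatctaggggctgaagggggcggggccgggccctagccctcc
Lfng, chr5:140607091-140607319, plus strand: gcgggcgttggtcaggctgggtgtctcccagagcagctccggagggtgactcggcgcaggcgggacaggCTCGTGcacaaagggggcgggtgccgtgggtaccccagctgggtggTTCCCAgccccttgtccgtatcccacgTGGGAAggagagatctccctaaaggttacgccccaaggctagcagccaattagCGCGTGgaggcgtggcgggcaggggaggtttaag
Dll1, chr17:15376933-15377182, minus strand: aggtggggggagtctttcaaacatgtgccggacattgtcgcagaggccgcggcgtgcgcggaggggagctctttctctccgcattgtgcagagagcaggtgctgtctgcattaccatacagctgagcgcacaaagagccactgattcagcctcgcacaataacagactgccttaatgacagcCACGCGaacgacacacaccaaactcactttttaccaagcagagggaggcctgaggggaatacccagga
The Lfng stretch held 2 RBPJ cores, 1 N-box and 1 class C site. The Hes7 stretch held 1 RBPJ core and 1 N-box, and 1 class C site lay in the exon part of its window. The Dll1 stretch held 1 class C site. Another Dll1 window, chr17:15375824-15376073, is not printed and had 0 matches to each of these motifs. Over 32851 windows of 250 bases from 27025 genes, 21.6% held the RBPJ core, 36.7% the N-box, 7.62% the class C site and 3.33% the T-box half-site. The table of promoters had windows for 8 of the 10 members, without Hes1 and Hes3. None of the windows of Jag1, Notch1, Notch2, Notch3 or Dll3 held the RBPJ core. A match is a run of letters and does not show that a factor binds there.

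Notch2 and Jag1 were among the genes that set the OB-EB library apart from both others. Of 11292 genes with at least 100 UMIs over the 3 libraries, 42 (0.372%) were at least 4-fold above both other libraries at OB-EB. By the same rule there were 234 genes (2.07%) at EHF, Hes7 among them, and 12 (0.106%) at MS-LS. The OB-EB library was thus not the most distinct by this count. Notch2 and Jag1 were 2 of the 42 at OB-EB. The most abundant of them, picked after their values were seen, were Actb, the cytoskeletal actin, at 2433, 15008 and 1316 CPM (UMIs per 1000000 UMIs of a library) in order of stage, and Alyref, an mRNA export factor, at 167, 2050 and 224. Actb was higher at OB-EB than at MS-LS in 9 of 9 cell groups that could be compared and Alyref in 9 of 9. Stage and library cannot be told apart in this design, so the members are also given below for EHF straight over MS-LS, which leaves the OB-EB library out.

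Over whole libraries, Hes1 was lower and Hes7 was higher at each later stage. Levels are in CPM, the UMIs of a gene per 1000000 UMIs of the cells named, which can be compared between samples for 1 gene but not between genes. Hes1, a widely expressed Notch target, stood at 555 CPM (545 to 566) at MS-LS, 168 (160 to 175) at OB-EB and 59.5 (56.2 to 62.9) at EHF, and the intervals were apart. With each cell thinned to 2000 UMIs, 53.4%, 24.6% and 11.5% of cells had a Hes1 UMI, and 69.5%, 31.8% and 25.1% without thinning, at the median depths given above. Hes7, the clock repressor, was nearly absent at MS-LS, with 6 UMIs or 0.334 CPM (0.123 to 0.727). It stood at 3.04 (2.14 to 4.19) at OB-EB and 19.1 (17.3 to 21.1) at EHF. Hes3, a repressor best known from neural progenitors, was listed at EHF alone, at 10.1 CPM (8.78 to 11.6).

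The ligands did not move together. Dll1, the main Delta ligand of the early mesoderm, stood at 8.13 CPM (6.86 to 9.56) at MS-LS, 23.1 (20.4 to 25.9) at OB-EB and 17.9 (16.1 to 19.8) at EHF. Dll3, a divergent Delta protein that does not activate receptors on neighbouring cells, stood at 13.5 (11.9 to 15.3), 26.3 (23.5 to 29.3) and 15.5 (13.8 to 17.3), and its values at the first and last stage overlapped. Jag1 stood at 8.18 (6.91 to 9.62), 37.1 (33.8 to 40.7) and 8.49 (7.27 to 9.85), so that only the OB-EB library lay apart. Among the receptors, which all carry the signal into the nucleus in the same way, Notch1 stood at 5.29 (4.28 to 6.46), 7.63 (6.16 to 9.35) and 14.2 (12.6 to 16), with its highest level at EHF. Notch2 stood at 34.6 (32.0 to 37.4), 156 (149 to 163) and 12.6 (11.1 to 14.3), with its peak in the OB-EB library. Notch3 lay between 3.63 and 5.18, with 59 to 93 UMIs a library and intervals that overlapped. Lfng, which adds a sugar to the receptors and changes which ligands they answer, stood at 2.73 (2.02 to 3.61), 6.98 (5.57 to 8.63) and 4.02 (3.2 to 5.0).

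**Figure D1:**
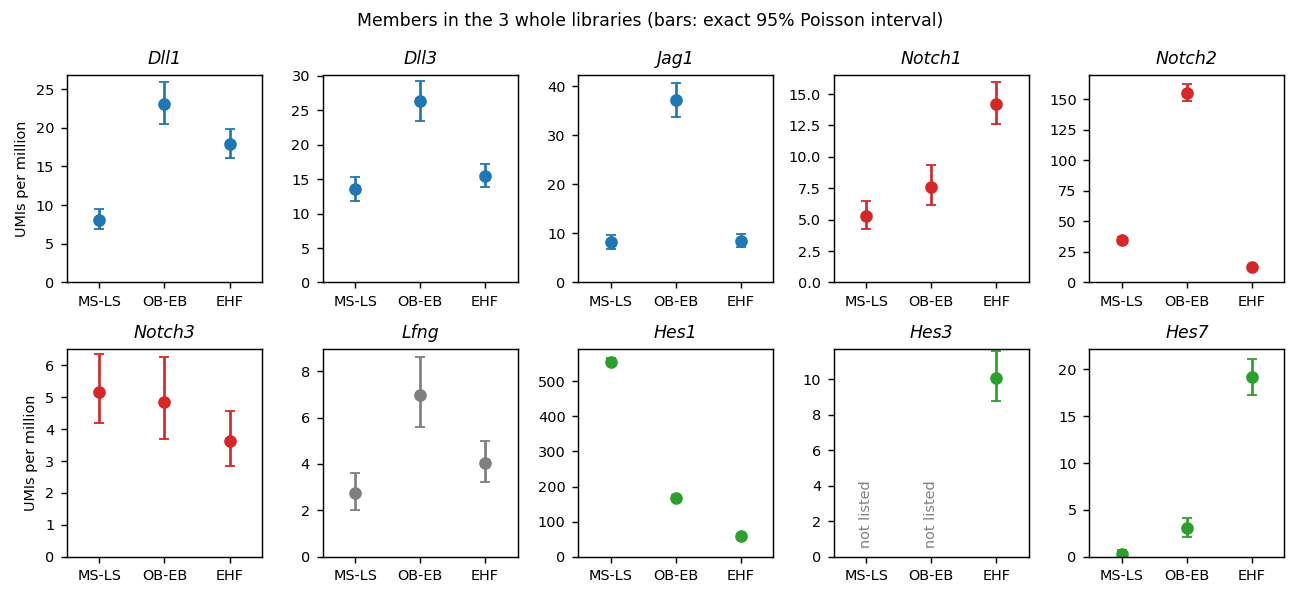
Level of each member in each stage library, in CPM, with 95% intervals for counting error. Hes1 is lower at each later stage, Hes7 is higher at each later stage, and Notch2 and Jag1 peak in the OB-EB library.

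Differences were called at a ratio of at least 2-fold among genes with at least 100 UMIs over both groups. From MS-LS to OB-EB, 8 of the 9 listed members had enough UMIs. Among them 4 were called higher, against 4.17% of all 9706 genes, and 1 was called lower, against 3.28%, or 5 in either direction against 7.45%. The log2 ratios were 2.18 for Jag1, 2.17 for Notch2, 1.51 for Dll1, 1.36 for Lfng and -1.73 for Hes1. The median log2 ratio was 1.16 over the members and -0.09 over all genes. From OB-EB to EHF, which shares the OB-EB library with the first comparison, 9 members had enough UMIs. Here 1 was called higher, against 14.9% of 10453 genes, and 3 were called lower, against 5.57%, or 4 against 20.5%. Hes7 had a log2 ratio of 2.66, Notch2 of -3.63, Jag1 of -2.13 and Hes1 of -1.49, and the median was -0.76 over the members and 0.37 over all genes.

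From MS-LS straight to EHF, 3 members were called higher, against 10.9% of 10778 genes, and 2 lower, against 4.52%, or 5 against 15.4%. Hes7 had a log2 ratio of 5.84 (4.71 to 7.30), Notch1 of 1.43 (1.09 to 1.78) and Dll1 of 1.14 (0.86 to 1.42). Hes1 had a log2 ratio of -3.22 (-3.31 to -3.14) and Notch2 of -1.46 (-1.67 to -1.24). Jag1, called in both comparisons with the OB-EB library, had a ratio of 0.05 (-0.27 to 0.38) here. The rest were 0.19 for Dll3, 0.56 for Lfng and -0.51 for Notch3. Lower Hes1 and higher Hes7 were thus found without the OB-EB library, whereas Jag1 did not differ beyond counting error and Notch2 was lower at EHF.

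Notch2, Hes1 and Jag1 were then compared within cell groups. The groups were cells named by the study, matched by barcode, or clusters named here from marker genes, whose names end in -like. From MS-LS to OB-EB there were 9 groups, in which epiblast and definitive endoderm stood both by the study's names and by cluster. The MS-LS cluster named definitive endoderm-like held 255 cells but only 2 of the 130 cells that the study called definitive endoderm, so its values are not those of the study's endoderm. Notch2 was higher at OB-EB than at MS-LS in 9 of 9 groups. Its log2 ratio was 0.99 in definitive endoderm-like cells, from 87 against 70 UMIs, and ran from 1.67 to 2.90 in the others. In the primitive streak, the midline cleft through which epiblast cells leave to form mesoderm and endoderm, it stood at 167 against 22.4 CPM, and in extraembryonic (Exe) ectoderm-like cells, which form placenta, at 86.2 against 23.8. Actb was higher in the same 9 groups by 1.99 to 3.13 on the log2 scale, while the median of all genes over whole libraries was -0.09. Whether the Notch2 and Actb values are related was not tested. Hes1 was lower at OB-EB in 9 of 9 groups, with a ratio of -0.92 in definitive endoderm-like cells and of -2.30 to -1.33 in the others. It stood at 98.7 against 365 in epiblast, the sheet of pluripotent cells, at 194 against 818 in streak and at 274 against 1158 in the study's definitive endoderm. From OB-EB to EHF, Hes1 was lower in 5 of 5 groups, by -1.05 to -0.72. From MS-LS straight to EHF, Hes1 was lower in 4 of 4 groups, by -2.89 to -1.98. Notch2 was lower there in 3 groups, at -1.79 in Exe ectoderm-like, -1.49 in definitive endoderm-like and -1.26 in Exe endoderm-like cells. In notochord and node-like cells Notch2 was at 0.98 (-0.45 to 2.55), from 13 against 7 UMIs. The lower Hes1 was thus found within cell groups as well as over whole libraries. Jag1 was higher at OB-EB in 5 of 5 groups with at least 20 UMIs. The ratio was 7.35 in definitive endoderm-like cells, from 102 against 1 UMIs, and 0.99 to 2.59 in the others, with 1.89 in the study's definitive endoderm.

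**Figure D2:**
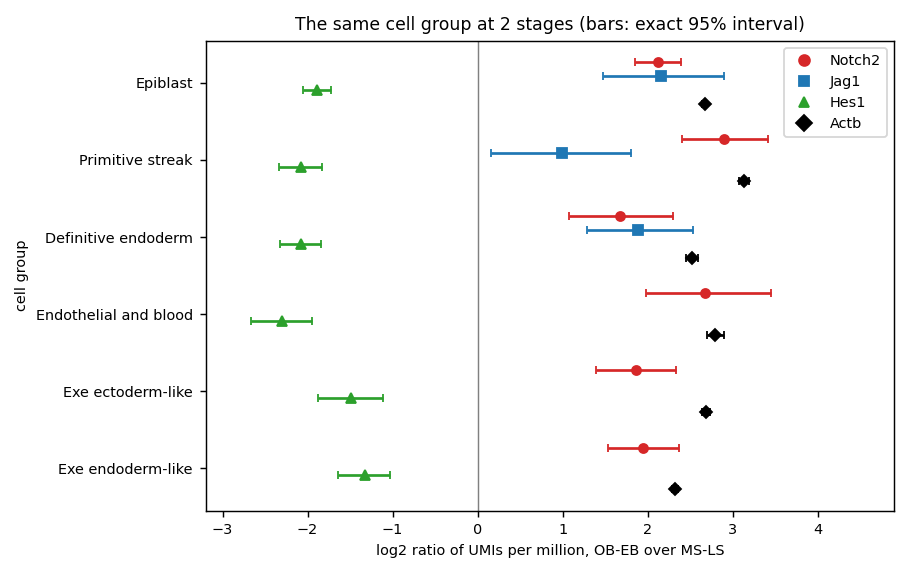
Log2 ratio of members, with Actb for comparison, between stage libraries within cell groups that share almost no cells and are present at both stages, with 95% intervals for counting error. Notch2 and Actb lie above 0 and Hes1 lies below 0 in all 6 groups from MS-LS to OB-EB.

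The study compared the primitive streak at successive stages. Its names covered 252 streak cells at OB-EB, with a median of 2809.5 UMIs, and 318 at MS-LS, with a median of 5612. The later cells come from the OB-EB library, in which Actb was also higher in streak and epiblast. The study's clustering could use the members, which were held out of the clustering made here. The levels of both Delta ligands were higher in the later streak. Dll3 stood at 46.1 against 14.8 CPM, from 34 against 31 UMIs, a log2 ratio of 1.64 (0.90 to 2.39). Dll1 stood at 37.9 against 13.3, from 28 against 28 UMIs, a ratio of 1.51 (0.70 to 2.32). Both had fewer UMIs than the minimum for a call. Hes7 had 22 UMIs in the later streak and 0 in the earlier. With the earlier group set at a floor of 3 UMIs the log2 ratio was 4.38, and its counting interval reached down to 3.96. Those streak cells were 6.31% of the OB-EB library and held 59.5% (42.1% to 75.2%) of its 37 Hes7 UMIs. In the unnamed cluster led by T, Mixl1 and Lefty2 found here, Hes7 was only at 7.58 CPM. Of its 326 cells, 55 were streak by the study's names, which was 21.8% of the study's streak cells. The Hes7 level of the streak thus rests on the study's choice of cells. Lfng was at 2.29 (0.82 to 3.87), Jag1 at 0.99 (0.15 to 1.80) and Notch1 at 0.29. Notch3 had 3 UMIs against 22, a ratio of -1.37 (-3.75 to 0.37). With at least 100 UMIs over both groups, 2 members could be called, 1 higher (Notch2), against 3.47% of 3196 genes, and 1 lower (Hes1), against 5.19%, or 2 against 8.67%.

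In the study's epiblast, 1219 cells at OB-EB with a median of 2630 UMIs were set against 1001 at MS-LS with a median of 4109. By these names the Delta ligands did not differ beyond counting error. Dll1 had a log2 ratio of 1.19 (-0.17 to 2.65) and Dll3 of 0.56 (-0.32 to 1.46). In epiblast-like cells, which share cells with the study's epiblast, Dll3 was at 1.28 (0.15 to 2.51), from 23 against 10 UMIs. Dll1 was there at 1.66 (-0.06 to 3.75). By the study's names, Jag1 stood at 22.0 against 4.91 CPM, a ratio of 2.16 (1.48 to 2.90). Of 3 members with enough UMIs, 2 were called higher (Jag1 and Notch2), against 4.97% of 5860 genes, and 1 lower (Hes1), against 2.18%, or 3 against 7.15%. Among male cells alone the Jag1 ratio was 0.36.

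At MS-LS, 36 anterior streak cells were set against the 318 streak cells. The anterior streak gives rise to endoderm and axial mesoderm and, by the study's lineage tracing, to part of the ventricular heart muscle. Hes1 stood at 1357 against 818 CPM, a log2 ratio of 0.73 (0.52 to 0.93), the one member with enough UMIs, and 0 members were called, against 1.24% of 2752 genes higher, 6.76% lower and 7.99% in either direction. Jag1 had 7 against 33 UMIs, a ratio of 1.43 (0.01 to 2.63), and Notch2 a ratio of 1.57 (0.48 to 2.54).

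Among the MS-LS clusters, the Delta ligands were highest in mesoderm, and Jag1 and Hes1 in cluster 11. Cluster 11 (159 cells) was led by Cer1, Lefty1, Sox17 and Hhex. It scored highest for anterior streak but had 4 anterior streak and 4 definitive endoderm markers among its leading 10 genes, and 80.5% of its cells were definitive endoderm and 18.2% anterior streak by the study's names. Dll1 stood at 37.3 CPM in cluster 12 and 28.0 in nascent mesoderm-like cells, and Dll3 at 59.2 in nascent mesoderm-like cells and 41.2 in cluster 12. Jag1 was highest in cluster 11, at 42.7 (29.9 to 59.1), and stood at 41.9 in the study's definitive endoderm. Hes1 ran from 194 in Exe ectoderm-like cells and 340 in epiblast-like cells to 1111 in nascent mesoderm-like, 1149 in cluster 12 and 1234 in cluster 11. At OB-EB, Dll1 was highest in cluster 3, led by Mesp1, and cluster 5, the one led by Lefty2 and T, at 77.9 and 77.7. Jag1 was highest in definitive endoderm-like cells, at 166 (135 to 202).

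At EHF the clusters fell into 27 groups, named from their markers or kept by number. The presomitic mesoderm-like cells (141 cells, median 4752 UMIs) had 3 presomitic and 3 paraxial markers among their leading 10 genes. Their 7 presomitic markers, with Msgn1 lowest at 8.30 CPM, summed to 1865 CPM, against 354 in Exe ectoderm-like cells, of which 346 was Cited1. All 7 were above 0 in both groups. Cluster 13 (121 cells, median 5140 UMIs) was led by Gal, Mixl1, T and Tbx6. It scored highest for caudal mesoderm, at 1.62, but only 0.12 above caudal epiblast, so it met no name. Its summed presomitic markers were 1205 CPM, of which 387 was Cited1, against 593 of Cited1 in presomitic mesoderm-like cells. Members were found in many groups at low level. Hes1 had a UMI in 27 of 27 groups, Notch2 in 26, Dll1 in 23, Notch1 in 22, Jag1 and Lfng in 20, Dll3, Notch3 and Hes7 in 19 and Hes3 in 15.

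**Figure D3:**
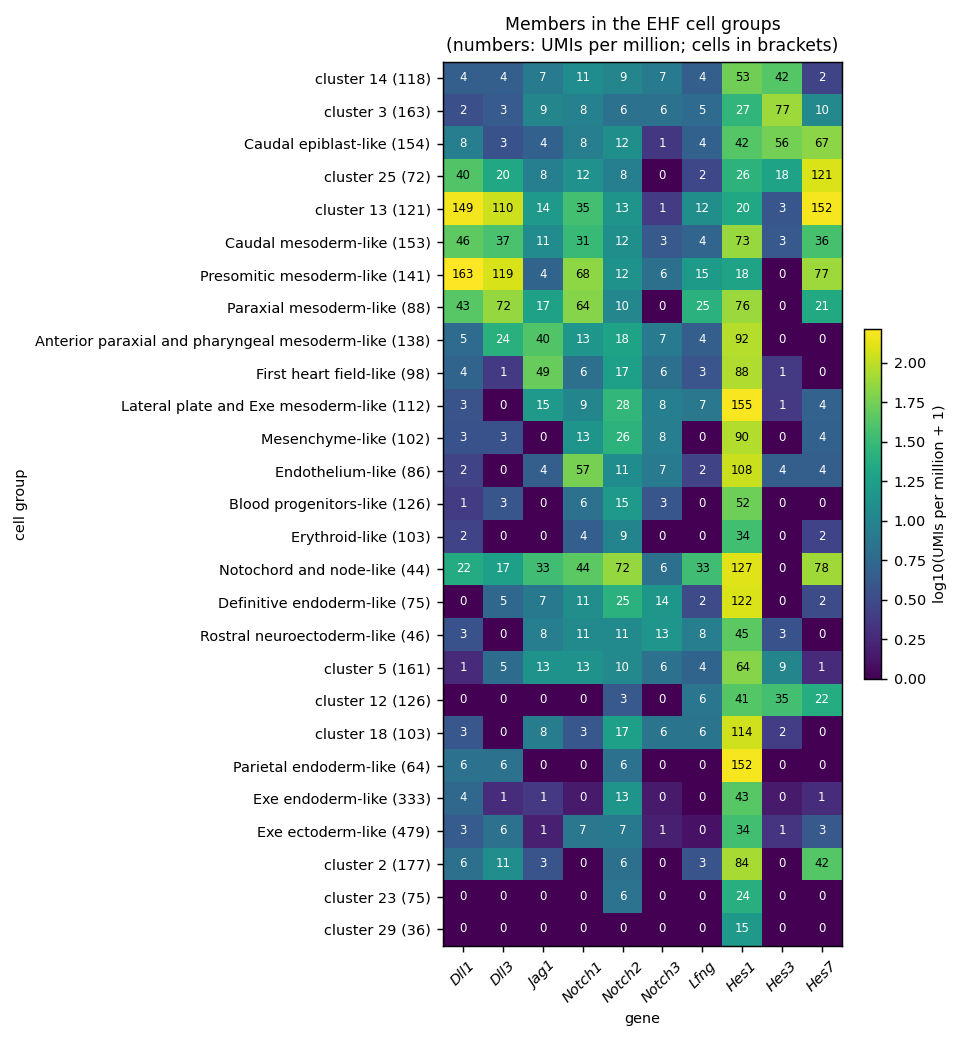
Level of each member in each group of EHF cells, in CPM. Dll1, Dll3 and Hes7 are highest in the presomitic and caudal groups, Jag1 in the first heart field-like group, and Hes3 in cluster 3 and the caudal epiblast-like group.

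The Delta ligands were concentrated in presomitic mesoderm and cluster 13. Dll1 stood at 163 CPM (135 to 195) in presomitic mesoderm-like cells and, in cluster 13, at 149 (121 to 180), which did not differ beyond counting error. It was next highest in caudal mesoderm-like cells at 45.7 (33.1 to 61.6), paraxial mesoderm-like cells at 42.6 (26.7 to 64.5) and cluster 25 at 40.5 (24.7 to 62.5), 3 levels that overlapped, and it was at 3.44 in Exe ectoderm-like cells. Presomitic mesoderm-like cells and cluster 13 together were 7.50% of the cells and held 60.7% (55.5% to 65.8%) of the Dll1 UMIs. When each cell was thinned to 2000 UMIs, 24.4% (17.5% to 32.6%) of presomitic mesoderm-like cells had a Dll1 UMI, against 0.420% of Exe ectoderm-like cells, whose median was 7137 and which were taken as the background. Without thinning the shares were 51.1% and 2.09%.

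Dll3 followed the same order, at 119 CPM (95.2 to 147) in presomitic mesoderm-like cells, 110 (86.4 to 137) in cluster 13 and 71.7 (50.4 to 98.8) in paraxial mesoderm-like cells. Presomitic mesoderm-like cells and cluster 13 held 51.4% of its UMIs. Across the 31 EHF clusters the correlation of Dll1 with Dll3 was 0.93, on the scale of log2 levels and over clusters that share 1 library, given as a description. Likeness to other genes was ranked among the 4628 genes with at least 500 UMIs at EHF, which leaves out Dll1 and Dll3 themselves. Of the ranked genes, those most like Dll1 were Aldh1a2, which makes retinoic acid, at 0.87, and the tdTomato reporter transcript at 0.83. Frzb, a secreted Wnt antagonist, followed at 0.78. Dll3 was, of the ranked genes, most like Aldh1a2 at 0.89 and Pcdh19, a protocadherin, at 0.82.

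Within presomitic mesoderm-like cells, detection of Dll3 did not differ beyond counting error between cells with and without Dll1. At 2000 UMIs a cell, Dll3 was found in 21.2% (8.98% to 38.9%) of the 33 cells with a Dll1 UMI and in 19.6% (12.4% to 28.6%) of the 102 without. A UMI of any of the 3 ligands was found in 40.0% of presomitic mesoderm-like cells and 50.8% of cluster 13, against 7.85% of all EHF cells. A receptor UMI was found in 13.3% of presomitic mesoderm-like cells. Both kinds were found in 3.70% (1.21% to 8.43%) of them and in 0.534% of all cells. At this depth a cell without a UMI cannot be told from a cell without the transcript.

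Jag1, the Jagged ligand, lay elsewhere. It was highest in first heart field-like cells, the progenitors of the early heart tube, at 49.1 CPM (34.2 to 68.3), and in anterior paraxial and pharyngeal mesoderm-like cells at 40.4 (27.8 to 56.7), 2 levels that overlapped. These groups were 6.75% of the cells and held 39.3% (32.0% to 47.0%) of the Jag1 UMIs, but 0 of the 390 Hes7 UMIs. In notochord and node-like cells Jag1 was at 33.3 (12.2 to 72.4) from 6 UMIs. First heart field-like cells had more Jag1 than lateral plate-like cells, with a log2 ratio of 1.74 (0.73 to 2.87), and less Hes1, with a ratio of -0.81 (-1.27 to -0.35). Among genes with at least 500 UMIs at EHF, Jag1 was most like Cdh2, the N-cadherin of mesoderm and neural cells, at 0.78. Foxp1 at 0.77 and Jam3 at 0.76 followed.

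Anterior paraxial and pharyngeal mesoderm-like cells (138 cells), which had 5 markers of that type and 3 paraxial markers among their leading 10 genes, were set against paraxial mesoderm-like cells (88 cells). The anterior cells had lower levels of the Delta ligands and Notch1 and more Jag1, all from few UMIs. Dll1 had 4 against 22 UMIs, a log2 ratio of -3.12 (-5.12 to -1.56). Dll3 had 20 against 37, a ratio of -1.55 (-2.41 to -0.73), and Notch1 11 against 33, a ratio of -2.25 (-3.38 to -1.23). Jag1 had 33 against 9 UMIs, a ratio of 1.21 (0.12 to 2.46), and Lfng had 3 against 13 UMIs. Hes1 was the one member with enough UMIs to be called, at 0.28, so 0 were called, against 0.892% of 1906 genes in each direction and 1.78% in both together.

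Of the receptors, Notch1 was highest in 3 groups whose levels overlapped, presomitic mesoderm-like cells at 67.8 CPM (50.1 to 89.6), paraxial mesoderm-like cells at 63.9 (44.0 to 89.7) and endothelium-like cells at 56.8 (38.6 to 80.7). In blood progenitor-like cells, which share an origin with endothelium, it was at 5.81, a log2 ratio of 3.29 (1.79 to 5.25) for endothelium over blood. In cluster 13 Notch1 was at 34.6, and the ratio of presomitic mesoderm-like cells to cluster 13 was 0.97 (0.24 to 1.74). Notch2 had a median level of 11.0 over the groups. Its highest level was 72.1 (38.4 to 123), from 13 UMIs in the 44 notochord and node-like cells. Notch3 was at most 13.8, from 6 UMIs, and the intervals of 24 of the 27 groups overlapped the highest, so no order could be read. Lfng was at 33.3 in notochord and node-like cells from 6 UMIs, 25.2 (13.4 to 43.1) in paraxial mesoderm-like cells, 15.2 (7.60 to 27.2) in presomitic mesoderm-like cells and 11.5 in cluster 13, levels that overlapped. Notch1 and Lfng had a correlation of 0.70 across the clusters.

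Among the Hes genes, Hes1 was low in the groups where Dll1 was highest, but also in groups with little Dll1. It was at 33.8 CPM in Exe ectoderm-like and 42.9 in Exe endoderm-like cells, where Dll1 was at 3.44 and 4.47. Across the clusters the correlation of Hes1 with Dll1 was -0.20. Hes1 stood at 155 CPM (128 to 186) in lateral plate-like cells and 152 (100 to 222) in parietal endoderm-like cells. In notochord and node-like cells it was at 127 (80.8 to 191), and these 3 levels overlapped. In presomitic mesoderm-like cells it was at 18 and in cluster 13 at 20.2, and the 2 groups held 2.23% of its UMIs. In paraxial mesoderm-like cells it was at 75.5, so presomitic over paraxial gave a log2 ratio of -2.07 (-3.10 to -1.13). Dll1 went the other way at 1.94 (1.27 to 2.67), as did Hes7 at 1.86 (0.91 to 2.94) and Dll3 at 0.73 (0.16 to 1.33). Notch1 was at 0.08 (-0.58 to 0.77) and Lfng at -0.73 (-2.03 to 0.55).

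Hes7 was high in cluster 13 and presomitic mesoderm-like cells and also in caudal groups where the Delta ligands were lower. Cluster 13 stood at 152 CPM (124 to 183) and cluster 25 at 121 (92.6 to 156). Cluster 25 was led by T, Hoxaas3, Nkx1-2 and Cdx1. The 2 clusters did not differ beyond counting error, with a log2 ratio of -0.32 (-0.80 to 0.15) for cluster 25 over cluster 13. Dll1 did differ between them, at -1.88 (-2.65 to -1.18), and Dll3 at -2.44. Hes7 was at 77.6 (42.4 to 130) in notochord and node-like cells from 14 UMIs. It was at 77.5 (58.5 to 101) in presomitic mesoderm-like cells and 66.5 (49.5 to 87.5) in caudal epiblast-like cells. Between presomitic mesoderm-like cells and cluster 13 the Delta ligands did not differ beyond counting error, with ratios of 0.13 (-0.26 to 0.53) for Dll1 and 0.12 (-0.35 to 0.58) for Dll3, while Hes7 was at -0.97 (-1.46 to -0.49). Caudal epiblast-like cells, cluster 25, cluster 13 and presomitic mesoderm-like cells were 14.0% of the cells and held 69.7% (64.9% to 74.3%) of the Hes7 UMIs. Thinned to 2000 UMIs, a Hes7 UMI was found in 29.2% of cluster 25 cells, 28.0% of cluster 13 cells, 13.3% of presomitic mesoderm-like cells and 0.840% of Exe ectoderm-like cells. Among genes with at least 500 UMIs at EHF, Hes7 was most like T at 0.88, Sp5 at 0.87 and Gal at 0.87. T and Sp5 are known for the caudal, Wnt-driven end of the axis.

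Hes3 lay beside Hes7 but peaked in other cells. It was highest in cluster 3, led by Gbx2, Ptn and Nkx1-2, at 77.5 CPM (62.5 to 94.9), and in caudal epiblast-like cells at 56.1 (40.6 to 75.5). Cluster 14 followed at 42 (26.6 to 63.0), and cluster 25 at 18.2 (8.32 to 34.6). In presomitic mesoderm-like cells 0 of 141 cells had a Hes3 UMI, with counting intervals that reached up to 2.58% of cells and 5.10 CPM. Cluster 3, caudal epiblast-like cells and cluster 25 held 70.4% (63.6% to 76.5%) of its UMIs, and with clusters 12 and 14 they held 86.9% (81.5% to 91.2%) in 18.1% of the cells. Thinned to 2000 UMIs, 11.7% (7.17% to 17.6%) of cluster 3 cells had a Hes3 UMI, against 0.630% of Exe ectoderm-like cells, and without thinning 42.9% against 0.835%.

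Cluster 3 and cluster 25 were opposite in these repressors. Cluster 3 over cluster 25 had a log2 ratio of 2.09 (1.10 to 3.26) for Hes3, of -3.60 (-4.63 to -2.69) for Hes7 and, from 3 against 20 UMIs, of -4.02 for Dll1. Between cluster 3 and caudal epiblast-like cells, Hes3 was at 0.47 (-0.07 to 1.02) and Hes7 at -2.73 (-3.78 to -1.81). Of the genes with at least 500 UMIs at EHF, Hes3 was most like Nkx1-2, a homeobox gene of the caudal epiblast, at 0.77. Map1b and Ptn followed, each at 0.72. Hes3 and Hes7 had a correlation of 0.27 across the clusters and Hes1 and Hes7 of -0.18.

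**Figure D4:**
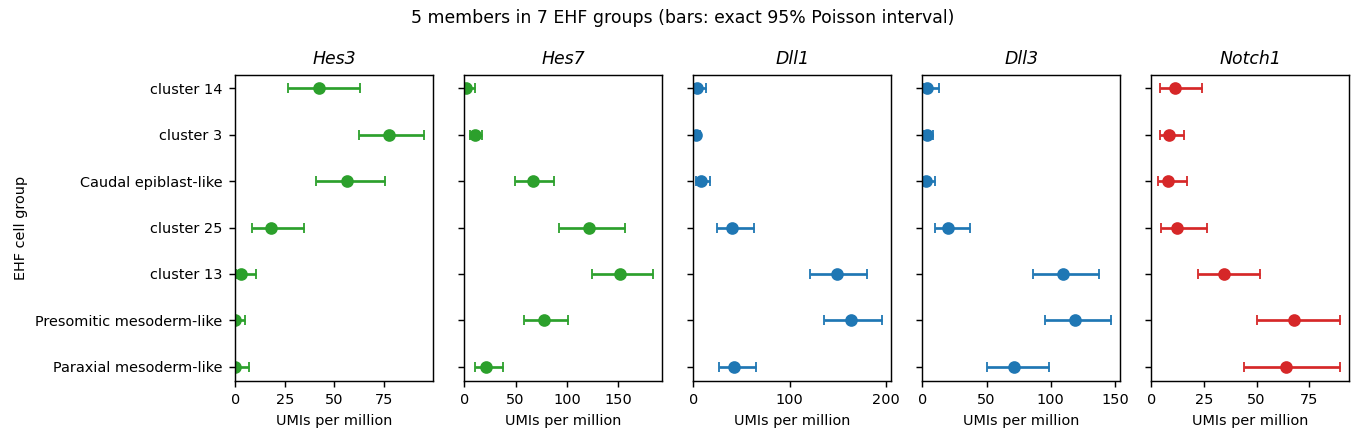
Levels of Dll1, Dll3, Notch1, Hes3 and Hes7, in CPM with 95% intervals for counting error, in the caudal and presomitic groups at EHF. Hes3 is highest in cluster 3, Hes7 in clusters 25 and 13, and Dll1 in cluster 13 and presomitic mesoderm-like cells.

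The 141 presomitic mesoderm-like cells were also set against 389 cells (median 6194 UMIs) of the clusters that scored highest for caudal epiblast. Of these clusters, cluster 3 (163 cells) and cluster 25 (72 cells) were unnamed. Caudal epiblast scored too close to caudal neuroectoderm in cluster 3 and to caudal mesoderm in cluster 25. The values thus compare clusters and not only named tissues. The summed caudal epiblast markers were 1575 CPM in cluster 3, 2444 in caudal epiblast-like cells and 3337 in cluster 25, and 1039 in presomitic mesoderm-like cells. Dll3 stood at 119 against 6.5 CPM, a log2 ratio of 4.19 (3.41 to 5.06), and Dll1 at 163 against 11.8, a ratio of 3.79 (3.20 to 4.43). Hes3 had 0 against 145 UMIs, a ratio of -3.83 at the floor, with a counting interval that reached up to -3.51. Hes7 was at 0.63 (0.15 to 1.10), under the 2-fold mark. Of 4 members with enough UMIs, 2 were called higher, against 2.02% of 3861 genes, and 1 lower, against 2.77%, or 3 against 4.79%. Notch1, with fewer UMIs than that minimum, was at 2.92 (2.17 to 3.72), Lfng at 1.91 (0.53 to 3.30) and Hes1 at -0.82 (-1.79 to 0.04).

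For the neural plate the design set clusters that scored highest for caudal neuroectoderm against those that scored highest for rostral neuroectoderm. The first was cluster 12 alone (126 cells, median 2098 UMIs), which failed naming, with 1 marker detected and no caudal neuroectoderm marker among its leading genes. The second was 207 cells (median 6992 UMIs), of which 161 were cluster 5, unnamed because rostral neuroectoderm scored too close to epiblast, and 46 were rostral neuroectoderm-like. The values therefore compare clusters, not named tissues. Hes3 had 11 against 12 UMIs, a log2 ratio of 2.20 (0.88 to 3.51), and Hes7 had 7 against 1, a ratio of 5.13 (2.17 to 10.6). A single member had enough UMIs and 0 were called, against 0.883% of 2492 genes higher, 13.6% lower and 14.4% in either direction.

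A wider list of 43 Notch pathway genes was read beside the members, with 39, 37 and 42 listed by stage. From MS-LS to OB-EB 0 of the 26 with enough UMIs were called, against 7.45% of all genes. From OB-EB to EHF 5 of 30 were called higher and 0 lower, against 14.9% and 5.57% of all genes, so the share called higher was near the background. Among those higher were Dlk1, a non-canonical ligand, at a log2 ratio of 2.0, Psen2, a gamma-secretase subunit, at 1.13, Pofut1, which adds fucose to receptors, at 1.07, and Rfng, a relative of Lfng, at 1.01. The medians were -0.02 and 0.35, close to those of all genes. In the presomitic against caudal epiblast comparison 0 of 5 were called, against 4.79%. Among targets and regulators at EHF, Nrarp, a feedback inhibitor of the receptor complex, was highest in endothelium-like cells at 29.3 CPM (16.8 to 47.6), the group high in Notch1, and stood at 16.6 in presomitic mesoderm-like cells and 17.5 in Exe ectoderm-like cells. Hey1, another repressor, was at 18.1 in caudal mesoderm-like cells, and Hes5 was at most 10.1. Dll4, the vascular ligand, had 2 UMIs in endothelium-like cells.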

How the data were processed

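Per the study's methods and the labels, cells of pooled embryos were captured with Chromium 3′ v2 chemistry, and the authors made counts of UMIs per gene with Cell Ranger 3.0.2 on GRCm38 with vector sequences added. The deposited counts were used as given, without normalization. Depth and cells per library are given with the results.

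Counts were summed over cells and divided by all UMIs of those cells per 1000000. Intervals are exact 95% Poisson, Clopper-Pearson or ratio intervals (scipy 1.17.1, Python 3.11.15). A difference was called at 2-fold among genes that had 100 UMIs or more in the pair of groups, and a group without UMIs was set at a floor of 3 UMIs. Because there was 1 library per stage and cells are not replicates, no test was made. These steps were checked on simulated data.

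Clustering was run in R 4.3.3, with Seurat 5.3.0 (2000 variable genes, 50 components, resolution 4.5 for EHF and 2 before), without the members, the wider list and the tdTomato row, giving 16, 15 and 31 clusters. Of these 10, 8 and 21 were named from markers of 27 types. To be named, a cluster had to show 3 markers of the type, beat the runner-up by 0.2 in score and have no other type with more markers than its own among its leading 10 genes, so that ties were allowed. The streak and epiblast cells took the study's names by barcode, from a clustering that could use the members. Scrublet in scanpy 1.11.5 marked 8, 0 and 4 cells as doublets, too few for it to have worked, so no cell was removed, and leaving out the top 5% of scores was an alternative. Correlations across clusters used log2 of CPM plus 10, and the genes most like a member were ranked among those with at least 500 UMIs at EHF. All 10 members are described, and the values of some other genes are not reported here. The members, lists and naming margin were chosen with earlier results of these data known. Gene positions are from the GENCODE annotation of GRCm38 and promoters from the RefSeq table on GRCm38.p6.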

Additional observations from a re-analysis of the deposited data

How the results depend on the processing

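No paired analysis was possible because each stage was a single library. With that design the values rest on counting error alone, levels of Notch3 and Lfng and of groups under 50 cells rest on few UMIs, and stage cannot be told apart from library. Of the alternatives for single values, 205 stayed within the counting interval of the reported value, 54 moved and 1 reversed. Of the 205, 29 were at a minimum of 20 UMIs, which changes the calls but cannot change a ratio. A reversal was counted only for a called ratio, or for detection shares whose intervals were apart.

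The reversal was Jag1 from OB-EB to EHF, at -2.13, which became 0.0534 for EHF straight over MS-LS with the OB-EB library left out, an alternative added after the data were seen. With male cells alone, the members called from MS-LS to OB-EB went from 5 to 3 (6.76% of all genes). In the streak the count of 2 became 5 with the clusters found here (10.2% of all genes), 1 with female (9.22%) and 1 with male cells alone (9.57%), and 6 of 8 with a minimum of 20 UMIs (14.3%). With that lower minimum the count went from 0 to 4 of 6 for the anterior streak (17.6% of all genes), from 3 to 5 of 9 for presomitic against caudal epiblast (12.1%), from 0 to 1 of 2 for cluster 12 against the rostral clusters (27.1%) and from 0 to 4 of 6 for anterior against paraxial mesoderm (6.66%). With female cells alone the presomitic count was 0, since only 1 member had enough UMIs (5.02% of all genes). At a lower clustering resolution the presomitic ratios were 5.14 for Dll1, 5.35 for Dll3 and 2.40 for Hes7, against 3.79, 4.19 and 0.63, so the Hes7 difference depends on where the cluster borders lie. Leaving out mitochondrial and ribosomal protein genes, cells under 2000 UMIs or the top doublet scores moved none of the single values. The differences in detection between cells with and without Dll1 moved in 9 and stayed in 9 values when cells were thinned to 3500 UMIs, and moved in 15 and stayed in 3 without thinning. In presomitic mesoderm-like cells the sign of the Dll3 difference changed, to 27.5% with Dll1 against 39.1% without at 3500 UMIs, with intervals that overlapped. The paraxial group could not be formed at the lower resolution, and neither could the MS-LS streak among the clusters found here.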
